A study of Mus musculus with 6 samples.

Results

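Fibroblast identity genes are genes whose products mark fibroblasts or direct mesenchymal development. The set held 10 genes: the PDGF receptor genes Pdgfra and Pdgfrb, the surface protein genes Thy1 and Cd44, the transcription factor genes Prrx1, Prrx2 and Tbx15, and Postn, Fap and Fbn1, whose products act in or at the matrix. A gene entered by its symbol alone, through the brightest probe set that carried only that symbol. Of the 10 genes, 9 were read, each by 1 probe set, out of 19938 genes on the array. Fbn1 was not analysed here.

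The samples were 6 arrays hybridised with total RNA of mouse iPSCs, pluripotent stem cells obtained by reprogramming fibroblasts, 3 labelled naive and 3 labelled primed. Naive cells were kept in medium with 15% fetal bovine serum and 1000 U/ml leukaemia inhibitory factor. Primed cells were kept in medium conditioned by mouse embryonic fibroblasts with 8 ng/ml basic FGF, on feeder cells or on matrigel; the labels do not say which support was used for which array. By the titles the naive lines came from embryonic and the primed lines from adult dermal fibroblasts, while the source name gives embryonic fibroblasts for all 6 arrays. If the titles hold, the effects of culture and of origin cannot be told apart. The arrays are called biological replicates without saying whether lines, cultures or passages were repeated, so p-values measure the spread between these arrays, which may be technical. The labels name no strain, sex or reprogramming method.

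Reprogramming a fibroblast into a pluripotent cell silences its mesenchymal programme. Loss of THY1 from the surface is among the early steps of that process and is used to follow it. Feeder layers are themselves fibroblasts, so their RNA in a culture of pluripotent cells would also carry these transcripts. The comparison therefore asked whether a trace of the cells of origin, or of feeder cells, differed between naive and primed arrays. In bulk RNA, fewer cells of a type and less RNA per cell cannot be told apart.

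Of the 9 identity genes, 3 differed between the groups, each by less than 2-fold. Pdgfrb was higher in primed cells, Cd44 and Postn were higher in naive cells, and Thy1, Pdgfra, Prrx1, Prrx2, Fap and Tbx15 did not pass the test. Each difference is the primed mean less the naive mean, on the log2 scale of RMA (robust multi-array average), so a positive value means more signal in primed cells. The count past the threshold (limma over all genes, Benjamini-Hochberg adjusted p under 0.05) was 3 of 9, or 33.3%, against 44.5% of all genes. By direction, 1 of 9 rose from naive to primed, against 21.8% of all genes, and 2 of 9 fell, against 22.7%. With each array centred on its median, 35.2% of all calls were higher in primed cells instead of 49.0%, and the identity genes then gave 1 higher and 3 lower. No identity gene differed 2-fold, where 3.55% of all genes were past the threshold and at least 2-fold apart. By limma, 4 of the 9 had an unadjusted p under 0.05. At least 44.5% of all genes did too, since the adjustment never lowers a p-value. The median size of the difference was 0.07 over the 9 genes and 0.14 over all genes, and 21.4% of all genes differed by more than any identity gene did. The groups did not overlap for 4 of the 9 genes (Pdgfrb, Cd44, Postn and Prrx1), against 52.9% of all genes.

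Whether a transcript was there at all was read against olfactory and vomeronasal receptor genes, genes of the sense of smell that stand in here for genes not expressed. The 95th percentile of 1190 such genes lay between 6.96 and 7.03 on the 6 arrays, with medians of the receptor genes between 5.11 and 5.17. Prrx1, Tbx15, Postn and Fap lay under this cutoff on all 6 arrays and are called in background. Thy1, Prrx2, Cd44, Pdgfrb and Pdgfra lay above it on all 6 arrays, Pdgfra by a narrow margin. The cutoff sets a probe set against others that bind differently, so it bounds what can be read and does not measure absence. The fold changes of such dim genes come out too small after RMA. Of 10 pluripotency genes, among them Pou5f1, Sox2 and Nanog, 0 lay in background in both groups, against 5365 of all 19938 genes. This does not check which cells were naive and which primed.

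**Figure D1:**
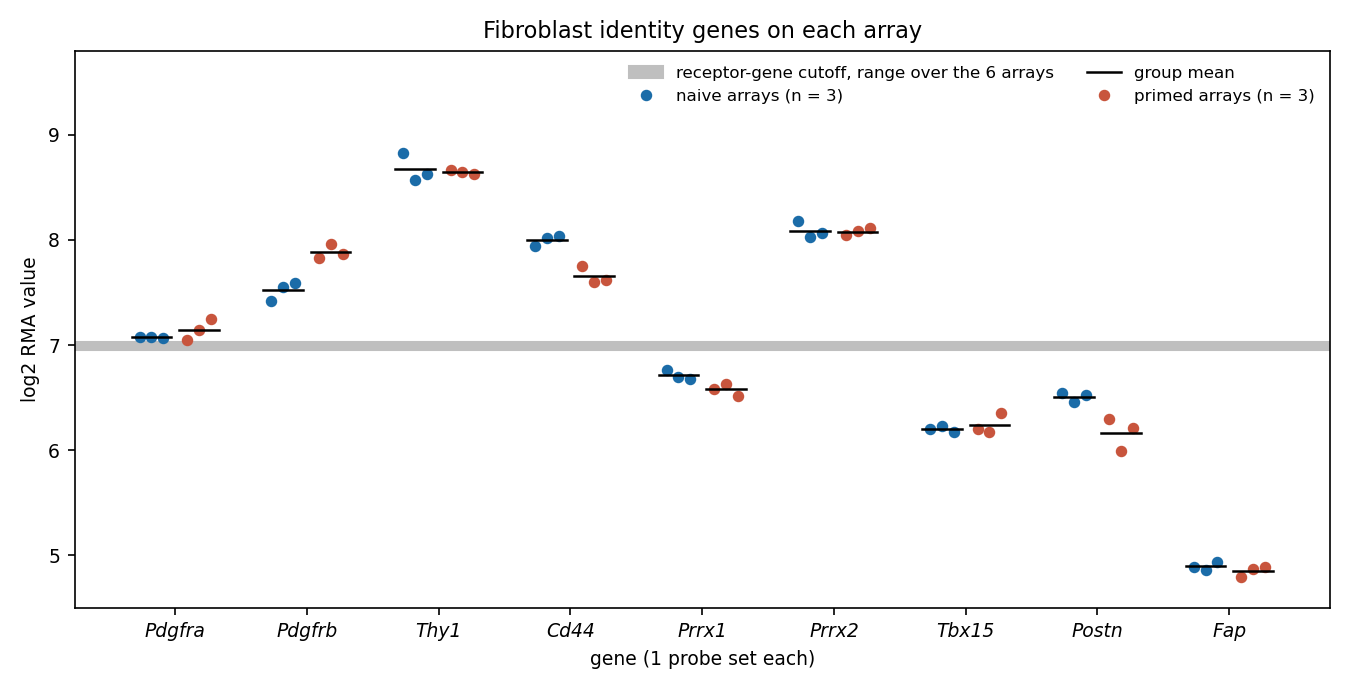
log2 RMA values of the 9 fibroblast identity genes on each array, with blue points for the 3 naive and red points for the 3 primed arrays, bars at the group means and a grey band over the range of the receptor-gene cutoff (6.96 to 7.03). Prrx1, Tbx15, Postn and Fap lie under the band on every array, and the groups separate visibly for Pdgfrb, Cd44 and Postn; heights of different genes are not comparable, since each has its own probe set.

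The promoters of Cd44 and Postn, the genes that were lower in primed cells, are shown to give the sequence at which their transcription starts. They are RefSeq windows of GRCm38.p6 from 250 bases before to 50 bases after an annotated start, 5′ to 3′ on the gene's strand. Cd44 has the window chr2:102901616-102901915 on the minus strand, and Postn has an upstream window, chr3:54359017-54359316, and a downstream one, chr3:54360857-54361156, both on the plus strand. Capitals mark matches on either strand to any of 5 short motifs: TATAAA (the TATA box), CCAAT (the CCAAT box), GGGCGG (the GC box), TGANTCA (AP-1) and GGAATG (TEAD).
Cd44: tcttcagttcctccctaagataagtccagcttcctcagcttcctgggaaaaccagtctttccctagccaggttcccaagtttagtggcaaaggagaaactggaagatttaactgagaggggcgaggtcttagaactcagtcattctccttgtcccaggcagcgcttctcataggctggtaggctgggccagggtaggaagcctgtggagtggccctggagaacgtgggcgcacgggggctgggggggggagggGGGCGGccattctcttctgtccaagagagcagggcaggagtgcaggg
Postn upstream: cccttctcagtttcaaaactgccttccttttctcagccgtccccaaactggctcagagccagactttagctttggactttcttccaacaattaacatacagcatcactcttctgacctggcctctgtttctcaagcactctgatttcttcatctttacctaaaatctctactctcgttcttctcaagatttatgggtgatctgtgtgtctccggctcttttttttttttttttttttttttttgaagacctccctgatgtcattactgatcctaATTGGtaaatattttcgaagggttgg
Postn downstream: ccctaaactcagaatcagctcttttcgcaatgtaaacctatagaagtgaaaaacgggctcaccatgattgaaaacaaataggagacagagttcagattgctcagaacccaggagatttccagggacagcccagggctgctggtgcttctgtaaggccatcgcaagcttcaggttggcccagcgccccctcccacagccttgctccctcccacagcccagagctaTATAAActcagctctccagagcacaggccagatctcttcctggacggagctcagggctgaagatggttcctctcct

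The downstream Postn window holds a TATA box 26 to 21 bases before the start, a motif found in 13.6% of 32851 windows of the same length. The upstream Postn window has 1 CCAAT box after its start, found in 37.4% of windows, and is poor in G and C (only 10.1% of windows have less). Cd44 has 1 GC box just after its start, found in 35.7% of windows, and a G and C content of 58.0%. No match to the AP-1 (7.81% of windows) or TEAD (14.7% of windows) letters lies in these 3 windows. The matches overlap no other motif here, and they describe the letters only. Windows were also held for Pdgfra, Prrx1, Prrx2 and Fbn1. Prrx2 stood out among them by composition, with 70.3% G and C and 28 CpG pairs, against medians of 52.7% and 7 over all windows. Its paralog Prrx1 had 47.7% and 6. Thy1, Pdgfrb, Fap and Tbx15 had no entry in the table.

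Pdgfra and Pdgfrb encode receptor tyrosine kinases for platelet-derived growth factors, which drive division and migration of mesenchymal cells; PDGFRA marks many fibroblasts and PDGFRB marks fibroblasts and pericytes. Pdgfrb read 7.42, 7.56 and 7.59 on naive replicates 1 to 3 and 7.83, 7.96 and 7.86 on primed replicates 1 to 3. Every primed array lay above every naive array. The mean rose from 7.52 ± 0.09 to 7.89 ± 0.07 (SD, n = 3), which is a difference of 0.37 (SE 0.06, limma adjusted p = 0.00051). This is 1.29-fold, with a 95% interval of 1.17 to 1.42.

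Pdgfra read 7.08, 7.08 and 7.07 on the naive and 7.05, 7.14 and 7.25 on the primed arrays. The groups overlapped, and all 6 values lay close to the background cutoff. The difference of 0.07 did not pass (adjusted p = 0.37), with a 95% interval of -0.06 to 0.20. The receptors therefore gave different calls, but the difference between their changes was not tested.

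The ligands of these receptors went the other way from Pdgfrb. All 4 ligand genes were lower in primed cells: Pdgfc by the widest margin, from 9.86 ± 0.06 to 8.37 ± 0.09 (SD, n = 3), a difference of -1.49 (adjusted p = 6.5e-09). Pdgfb differed by -0.74, Pdgfa by -0.52 and Pdgfd, which was in background in both groups, by -0.42. Plau, whose product urokinase can activate PDGF-D, differed by -0.79 and was in background in primed cells. Plcg1, which encodes a phospholipase recruited to the active receptors, rose by 1.16. In the whole list of PDGF ligands, ligand-activating proteases and signalling genes, 3 of 20 rose from naive to primed, 10 fell and 7 did not pass, with a median of -0.15 against -0.0015 over all genes. The share of the list past the threshold was 65.0%, against 44.5% of all genes. After quantile normalization 5 genes of the list were higher in primed cells.

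Thy1 encodes a small glycoprotein anchored to the membrane by a lipid, found on fibroblasts, neurons and T cells. Its values were 8.83, 8.57 and 8.63 on the naive and 8.66, 8.65 and 8.63 on the primed arrays. The primed values fell within the naive range, and naive replicate 1 was the highest of the 6. The means were 8.68 ± 0.14 and 8.65 ± 0.02 (SD, n = 3), and the difference of -0.03 did not pass (adjusted p = 0.79, 95% interval -0.18 to 0.12). Both groups lay above the receptor-gene cutoff.

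Cd44 encodes the main receptor for hyaluronan, a large sugar polymer of the matrix, and is abundant on fibroblasts and on many migrating cells. It read 7.94, 8.02 and 8.04 on the naive and 7.76, 7.60 and 7.62 on the primed arrays. Every naive array lay above every primed array. The mean was 8.00 ± 0.05 in naive and 7.66 ± 0.09 in primed cells (SD, n = 3), which is a difference of -0.34 (SE 0.06, adjusted p = 0.00058). Naive cells were thus 1.27-fold higher, with a 95% interval of 1.16 to 1.39.

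Genes that work with CD44 or THY1 were read from a list of their own. Of 17 measured, 9 fell from naive to primed, 2 (Nf2 and Pag1) rose and 6 did not pass (64.7% past the threshold, against 44.5% of all genes), with a median of -0.20. Pag1 lay above the cutoff on only 1 naive array. Has2, which makes hyaluronan, stood at 11.48 ± 0.08 in naive and 10.65 ± 0.05 in primed cells (SD, n = 3), -0.83 apart. Msn, whose product moesin ties CD44 to actin, differed by -0.98, and its relative Ezr by -0.49. Mmp14, which encodes a membrane protease that can cut CD44, differed by -0.62. Among genes for integrins and co-receptors that bind THY1, Sdc4 differed by -0.71 and Itgb3 by -0.70.

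Prrx1 and Prrx2 encode paired-related homeodomain factors of limb and craniofacial mesenchyme, and Prrx1 is widely used to mark fibroblast progenitors. Prrx1 read 6.77, 6.69 and 6.68 on the naive and 6.59, 6.63 and 6.52 on the primed arrays, all under the cutoff. The groups did not overlap, but the difference of -0.13 did not pass (adjusted p = 0.067, 95% interval -0.26 to -0.01). It passed where each array was centred on its median (-0.21, adjusted p = 0.0084), within a range of 0.0084 to 0.23 over its 12 alternatives.

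Prrx2 read 8.18, 8.03 and 8.06 on the naive and 8.04, 8.09 and 8.11 on the primed arrays. The groups overlapped almost entirely, at means of 8.09 ± 0.08 and 8.08 ± 0.03 (SD, n = 3). The difference of -0.01 had a 95% interval of -0.13 to 0.12 (adjusted p = 0.93). Tbx15, a T-box factor gene of skin and skeletal patterning, read 6.20, 6.23 and 6.17 on the naive and 6.20, 6.18 and 6.35 on the primed arrays, in background throughout (difference 0.04, adjusted p = 0.64). Primed replicate 3 was its highest array. None of the 3 transcription factor genes of the set thus passed in either direction.

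Other transcription factor genes of mesenchyme passed at about the share of all genes, 45.0% against 44.5%. Of 20 measured, 3 rose from naive to primed, 6 fell, 11 did not pass, and the median difference was -0.01. Twist1 (-0.49), Snai1 (-0.50) and Snai2 (-0.45), which promote the epithelial to mesenchymal transition, were higher in naive cells. Snai2 lay above the cutoff on only 1 primed array. Zeb1 (0.55) and Zeb2 (0.56), which also promote that transition, were higher in primed cells. Msx2, a homeobox target of BMP signalling, had the largest difference of the list (-1.24). Tbx5, in background in naive cells and above the cutoff on only 1 primed array, rose by 0.59. Both groups were in background for 6 genes of the list, including Tbx18, a close relative of Tbx15, and the mesoderm factor genes Meox1, Meox2 and Tcf21.

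Postn encodes periostin, a secreted matrix protein of activated fibroblasts, periosteum and tooth ligament. It read 6.54, 6.46 and 6.53 on the naive and 6.30, 5.99 and 6.21 on the primed arrays. The naive arrays were all higher, but every value lay under the background cutoff. The mean was 6.51 ± 0.04 in naive and 6.17 ± 0.16 in primed cells (SD, n = 3), which is a difference of -0.34 (SE 0.07, adjusted p = 0.0026), or 1.27-fold with a 95% interval of 1.13 to 1.42. Among the 5365 genes under the cutoff on all arrays 11.5% passed the threshold, against 56.7% of the other 14573. Tgfbi, the paralog of Postn, was well above background and also higher in naive cells (-0.47).

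Fap encodes fibroblast activation protein, a surface protease of activated fibroblasts. It read 4.88, 4.86 and 4.94 on the naive and 4.79, 4.87 and 4.89 on the primed arrays. These values were below the receptor-gene medians of 5.11 to 5.17 on every array. The difference of -0.05 had a 95% interval of -0.16 to 0.07 (adjusted p = 0.53). Its paralog Dpp4, also a surface protease of fibroblasts, was in background in both groups.

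Fbn2, which encodes the fibrillin of early development and is the paralog of Fbn1, was higher in primed cells by 0.29 (adjusted p = 0.0014). Of 11 paralogs of the identity genes, 3 rose from naive to primed, 2 fell and 6 did not pass, with a median of -0.01. This is 45.5% past the threshold, near the 44.5% of all genes. The call of Csf1r, 1 of the 2 falls, was lost without naive replicate 1 (-0.13, adjusted p = 0.097), naive replicate 3 (-0.16, 0.073) or primed replicate 3 (-0.13, 0.12), which left 1. Both groups were in background for 6 of the 11.

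**Figure D2:**
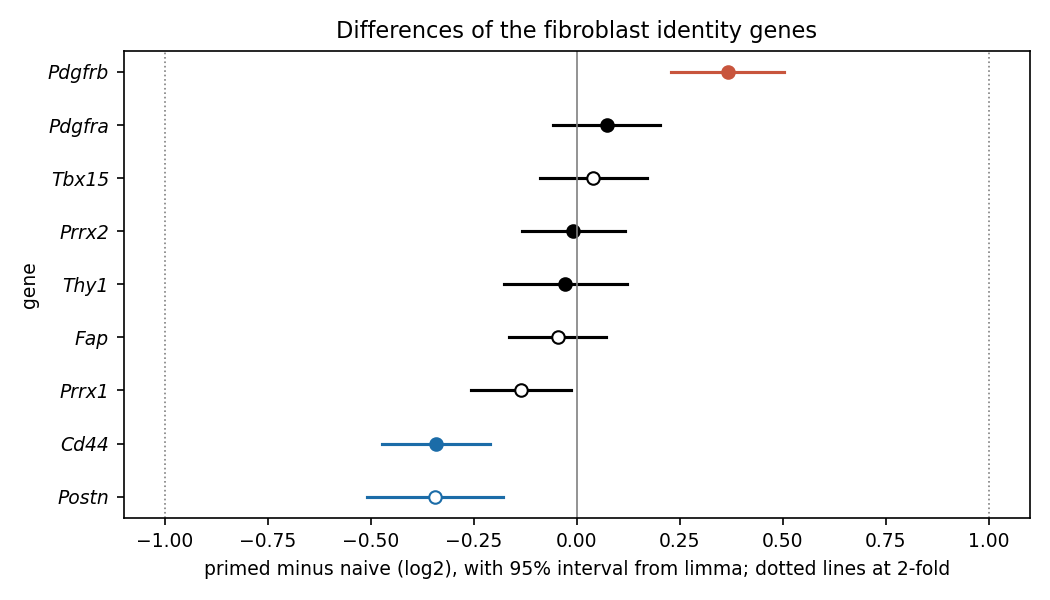
Difference of each of the 9 fibroblast identity genes, primed minus naive on the log2 scale, as a point with its 95% interval from limma; open points are genes in background in both groups, coloured points passed the threshold, and dotted lines stand at 2-fold. Pdgfrb (0.37) lies to the right, Cd44 and Postn (both -0.34) to the left, and the other 6 genes did not pass.

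Single arrays were compared to see whether the identity genes moved together between replicates of a group. For each array the deviation of every gene from its group mean was taken. The median deviation of the 9 genes ran from -0.04 on primed replicate 1 to 0.03 on primed replicate 3. The identity genes above their group mean numbered 4 to 6 of 9 on each array, so on no array did they all lie on the same side. For the 5 genes above background the medians ran from -0.04 to 0.0042. The widest single deviation was that of Postn on primed replicate 2, at -0.18. Replicates correlated across genes at r of 0.998 to 0.999, and arrays of different groups at 0.980 (genes are not independent replicates).

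**Figure D3:**
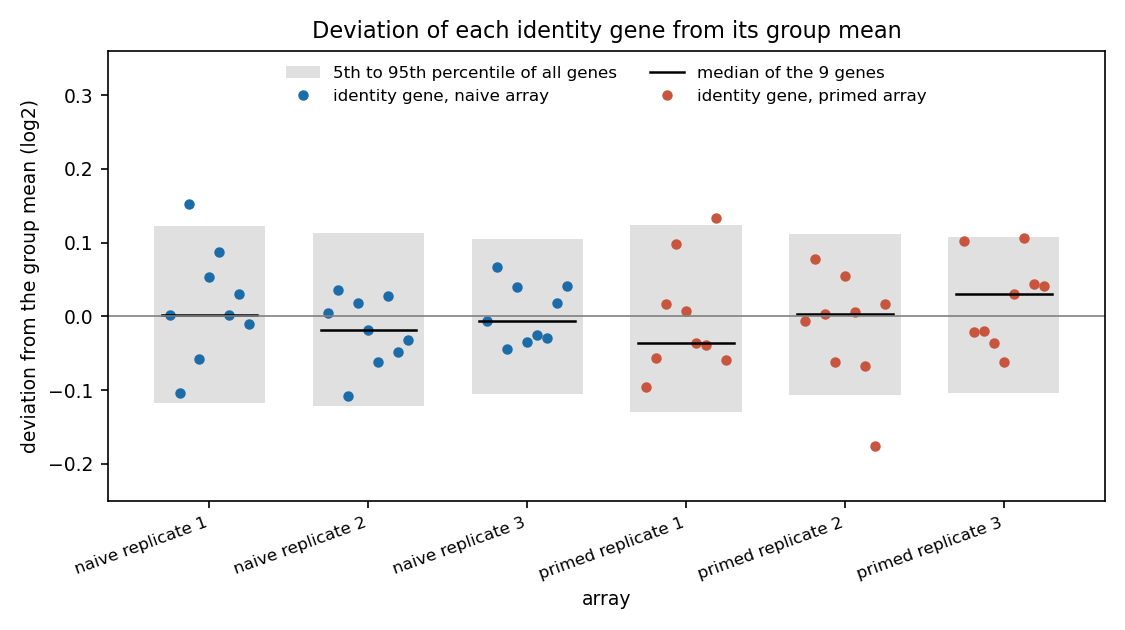
Deviation of each of the 9 fibroblast identity genes from its group mean, on the log2 scale, for each array; bars are medians of the 9 genes and grey boxes span the 5th to 95th percentile over all genes. The genes scatter around 0 on every array, with medians between -0.04 and 0.03.

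Other gene lists were read from the same fit, to place the identity genes among them. They cover fibroblasts and mesenchyme, PDGF signalling, and partners and paralogs of the identity genes. Not all of their genes are particular to mesenchyme. Across 8 such lists, 134 further genes were measured. Of these, 23 rose from naive to primed, 62 fell and 49 did not pass, so that 63.4% passed against 33.3% of the identity genes and 44.5% of all genes. However, 4 of the 9 identity genes lay under the background cutoff on all arrays, where 11.5% of genes passed, against 56.7% of the others. The part of signal level in the gap between these shares was not tested. For the 134 genes together the results were as follows. The median difference was -0.11, and 15 of the 134 both passed and differed at least 2-fold, against 3.55% of all genes. Of the 15, 6 were in the contractile and cytoskeletal list.

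Contractile and cytoskeletal genes, which myofibroblasts share with smooth muscle and many cultured cells, went mostly to naive cells. Of 15, 14 fell from naive to primed, 0 rose and 1 (Vim, -0.09) did not pass, with a median of -0.75. This is 93.3% past the threshold, against 44.5% of all genes. S100a6 (-3.39), for a calcium-binding protein, Anxa1 (-2.25), for a membrane-binding protein, Myl9 (-1.71), for a myosin light chain, and Cnn1 (-1.38), for calponin, led the list. Of 26 matrix genes, 7 rose, 10 fell and 9 did not pass (65.4% past the threshold), with a median of -0.09. Dcn, for the proteoglycan decorin, rose from 7.25 ± 0.08 to 10.15 ± 0.11 (SD, n = 3) and Mfap2, for a microfibril protein, rose by 1.09, while Timp2 (-0.87), for a metalloproteinase inhibitor, and Col1a1 (-0.76), for a chain of type I collagen, fell. The microfibril and TGF-beta list, where fibrillins act, gave 6 rises and 8 falls among 19 genes, with 5 that did not pass. Of the list 73.7% passed, led by Mfap2, Tgfb1 (-0.97), Efemp1 (-0.73) and Adamts10 (0.55). Leaving out any 1 array left 6 falls. The call of Tgfbr2 was lost in 5 of these cases, that of Mfap5 in 4 and that of Tgfb3 in 3.

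Genes known from dermal fibroblasts were listed because of the origin given in the titles. Of 14 measured, 2 rose from naive to primed, 5 fell and 7 did not pass, with a median of -0.11. The share of the list past the threshold was only slightly above the 44.5% of all genes. Crabp1, a retinoic acid binding protein gene of some dermal fibroblasts and of neural cells, rose by 2.84, and Lrig1, for a receptor inhibitor, rose by 0.22. The call of Lrig1 was lost in 8 of 14 alternatives, among them 5 that left out 1 array (adjusted p = 0.056 to 0.13; naive replicate 3 was the exception), and that of Twist2 in 4 of these (0.050 to 0.11; naive replicates 2 and 3 were the exceptions). Prdm1 (-1.71), Dlk1 (-1.59), Lef1 (-1.38), Sox2 (-0.52) and Twist2 (-0.21) were higher in naive cells, and Sox2, Lef1, Prdm1 and Dlk1 are also genes of pluripotent or early embryonic cells. Dpp4, Cd34, Pi16 and Tbx18 were in background in both groups.

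**Figure D4:**
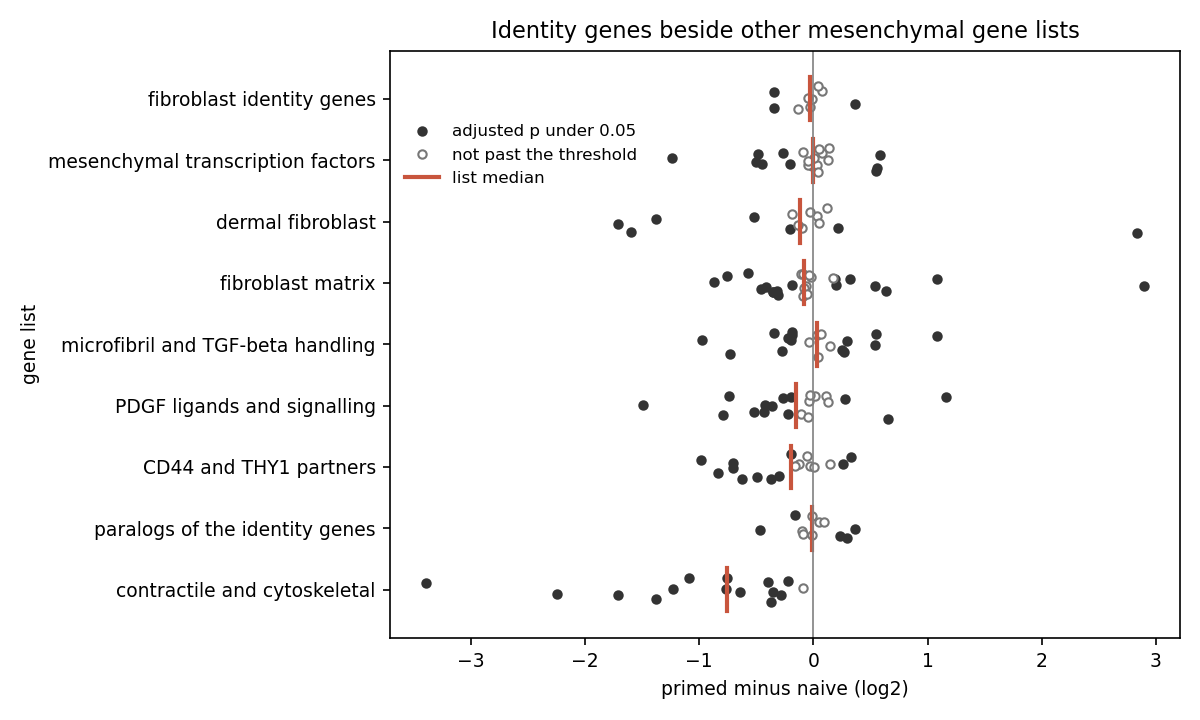
Difference of each gene, primed minus naive on the log2 scale, for the fibroblast identity genes (top row) and 8 other gene lists. Not all genes of these lists are particular to mesenchyme. Filled points passed an adjusted p of 0.05, open points did not, and red bars are list medians. The identity genes lie within -0.34 and 0.37, the contractile list lies to the left with a median of -0.75, and Dcn (2.89) and Crabp1 (2.84) stand far to the right; some genes are in more than 1 list.

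Cells other than fibroblasts can carry identity genes too, Pdgfrb in pericytes and Cd44 in blood cells, so markers of 8 other differentiated cell types were read beside them. Pericyte and smooth muscle markers gave 5 falls and 0 rises among 8 genes (62.5% past the threshold, against 44.5% of all genes). The other 3 did not pass. The 5 that passed were lower in primed cells, where Pdgfrb was higher. The part of pericytes in the difference of Pdgfrb was not tested. The summed log2 level of the 8 markers was 67.7 to 68.0 on the naive and 64.5 to 64.8 on the primed arrays. Des (-1.59), Kcnj8 (-0.52) and Mcam (-0.41) were among those past the threshold. Kcnj8 lay above the cutoff on only 1 primed array, and Rgs5 was in background in both groups. Macrophage and blood markers gave 1 fall (Csf1r, -0.16) and 0 rises among 8 genes (12.5% past the threshold). Their sums were 54.3 to 55.2 on the naive and 54.6 to 55.0 on the primed arrays. Ptprc, Adgre1, Lyz2, Cd14, Itgam and Csf1r were in background in both groups.

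The other marker lists were mixed. In the endothelial, skeletal muscle, keratinocyte, bone and cartilage and fat cell lists at most 37.5% passed the threshold, against 44.5% of all genes. In the neural crest list 66.7% passed. Endothelial markers gave 2 falls (Tek, -1.42, and Pecam1, -1.23, in background in primed cells) and 0 rises among 8 genes, with sums of 57.6 to 58.3 and 54.7 to 55.3 and with Kdr, Emcn and Erg in background in both groups. Skeletal muscle markers gave 2 of 8 higher in naive cells (Des, and Acta1 at -0.32). Keratinocyte markers gave 3 of 8 (Krt5, -0.63; Krt14, -0.44; Dsg3, -0.18, in background in both groups), and neural crest markers gave 3 of 6 (Foxd3, -0.82; Ngfr, -0.70; Erbb3, -0.35) with 1, Tfap2b, higher in primed cells though in background in both groups. Bone and cartilage markers gave 1 of 7 in each direction (Matn1, 0.46, and Acan, -0.21). Matn1 was in background in naive and Acan in primed cells, and each lay above the cutoff on 2 arrays of the other group. Fat cell markers also gave 1 of 6 in each direction (Lpl, 1.30, in background in naive cells, and Cebpa, -0.23). A difference from a group in background is limited by that background. Of the 10 pluripotency genes, 8 fell from naive to primed, 0 rose and 2 did not pass (80.0% past the threshold). The falls were led by Dppa4 (-1.74), Pou5f1 (-1.06) and Zfp296 (-1.04). Leaving out 1 array ended the calls of Acan (differences of -0.22 to -0.14 with adjusted p = 0.052 to 0.12 in 4 cases), Rgs5 (-0.17 to -0.15, 0.060 to 0.098 in 4), Csf1r (-0.16 to -0.13, 0.073 to 0.12 in 3), Dsg3 (-0.15 and -0.14, 0.082 and 0.069 in 2), Cebpa (-0.17, 0.056, without naive replicate 1) and Tfap2b (0.29, 0.051, without naive replicate 2), each with its direction kept. Naive replicate 1 was the array left out in 1 of the cases of each of these genes but Tfap2b. The part of any of these cell types in the differences of Pdgfrb, Cd44 and Postn was not tested.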

How the data were processed

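The deposited log2 values of 6 Affymetrix mouse gene arrays were made by the authors with RMA in Partek 6.6, per the submitters' processing notes; further options and the genome build were not given in the sources used here. Probe sets with 1 symbol in GEO's platform annotation (21789 of 35556) were used, 21698 of them matched by gene ID to RefSeq's GRCm38.p6 table. The probe set with the highest mean stood for each of 19938 genes, without further scaling.

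All genes were fitted with limma 3.58.1 in R 4.3.3 (lmFit, eBayes, two-sided, no covariates; tested on simulated data), and p-values were adjusted by Benjamini-Hochberg over the whole table with a threshold of 0.05. Lists were counted from this fit, without a set test. A group was called in background where its 3 arrays lay under the 95th percentile of receptor genes. With 3 arrays per group an exact permutation test of 1 gene cannot go below p = 0.1, and none was run. The identity genes and lists were chosen with earlier results of these data known. Besides all identity genes, the rule named up to 4 genes of each list (3 for cell types) with the widest differences past the threshold; further genes were named after their values were seen. Alternatives were 2 scalings, 2 filters on dim genes, probe set averaging, 2 variance models, a replicate block, 2 stricter thresholds and leaving out each array.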

Additional observations from a re-analysis of the deposited data

How the results depend on the processing

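The calls of Pdgfrb, Cd44 and Postn kept their direction and stayed past the threshold in every alternative fit that tested them (14, 14 and 12). Their differences ran from 0.30 to 0.40, from -0.41 to -0.31 and from -0.42 to -0.26. Postn was removed with the dim genes, which left 1 identity gene that fell from naive to primed with genes above the 40th percentile of mean expression, and 1 with genes above background on at least 1 array. With a 2-fold threshold added, 0 identity genes rose and 0 fell from naive to primed, and 340 and 367 of all genes did. To look for pairing by replicate number, deviations from the group means were correlated between arrays. Same-numbered arrays gave -0.10, 0.03 and -0.02. Differently numbered arrays ran from -0.11 to 0.11, so with 3 arrays per group these values cannot decide whether arrays were paired. With the replicate block the counts were 1 and 2 for the identity genes and 4172 and 4344 for all genes, against 4347 and 4529 without it. Centring each array on its median gave 3439 and 6325 and shifted the median of all genes by -0.07. Of 114 list genes past the threshold, 0 changed sign in any alternative and 10 at most lost their call when an array was left out (without naive replicate 1). With the 90th percentile of receptor genes as cutoff, 3 identity genes were in background in each group, since Prrx1 was no longer called so. Prrx1 then lay above the cutoff on every naive array, but among the primed arrays on replicate 1 only. With the 99th percentile, 6 were in background in naive cells, Pdgfra and Pdgfrb added, and 5 in primed cells. The number of arrays and the closeness of the identity genes to background limit what can be read.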
